A study of Rattus norvegicus with 8 samples.

Results

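Activity-regulated peptides and secreted effectors are genes whose transcription follows the firing of neurons and whose products act at or beyond the cell surface. Synaptic activity raises calcium and cyclic AMP, the transcription factor CREB is phosphorylated at cyclic AMP response elements, and a first wave of transcription factors is followed by such effector genes. In hippocampus they include peptide precursors stored in dense-core granules, growth-factor-like ligands, a surface protein of neurites and an inducible enzyme. The 9 genes taken here were Penk, Scg2, Adcyap1, Vgf, Inhba, Nrn1, Ptgs2, Nptx2 and Homer1. Ptgs2 encodes an enzyme and Homer1 a scaffold inside the synapse, so the name of the set does not describe every product.

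Members were chosen by gene symbol, and all probe sets with a single platform symbol among the 9 were taken. That gave 14 probe sets for 8 of 14218 genes measured with a single symbol. Nptx2 had no such probe set in the annotation used here and was not analysed. There was 1 probe set each for Penk, Scg2, Vgf, Nrn1 and Ptgs2, 2 each for Adcyap1 and Inhba, and 5 for Homer1. The set was picked partly for lower signal in the lesion arrays, so every lesion value of these genes is given as a description with no test.

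The study measured total RNA of rat hippocampal slice cultures, tissue explants maintained in culture, on 8 expression arrays. Each array held pooled RNA of 15 subdissected cultures at 7 days, with the field, CA1 or CA3, named in its title. The groups were CA1 lesion (1 array), CA1 control (3 arrays), CA3 lesion (1 array) and CA3 control (3 arrays). Titles number the controls of each field 1 to 3 and give both lesion arrays the number 1, without saying what the number stands for. Strain, age, the kind of lesion and the start of the count of days are not in the labels, and each lesion group is a lone array of pooled cultures. Nothing says that control arrays came from separate animals, so p-values measure the spread between these arrays, which may be technical.

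Both field dissections carried their own markers. Of 4 measured CA1 pyramidal markers, 3 were lower in CA3 controls than in CA1 controls (Pou3f1, Fibcd1 and Mpped1), and of 5 CA3 markers 2 were higher (Nectin3 and Cpne4), by limma at an adjusted p threshold of 0.05. Median intensity ran from 560 to 814 over the 8 arrays. The 3'/5' signal ratio of Gapdh, a measure of RNA integrity, was 4.65 in the CA1 lesion array and 3.71 to 5.0 in CA1 controls, and 5.23 in the CA3 lesion array and 3.75 to 3.93 in CA3 controls. The same ratio of Actb was 17.3 in the CA1 lesion array and 14.5 to 22.2 in CA1 controls. It was 19.8 in the CA3 lesion array and 15.0 to 21.4 in CA3 controls. Only Gapdh thus placed the CA3 lesion array above its controls. The part of RNA integrity in the lesion values below was not tested.

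The upstream sequence of Scg2 and Vgf is shown because both genes hold a full cyclic AMP response element, the site CREB binds, and both had lower signal in each lesion array than in all controls of its field. The 150 bases before the RefSeq gene start (GRCr8) are given in the direction of the gene, with the element in capitals. The Scg2 stretch is chr9:88256867-88257016, minus strand, and that of Vgf is chr12:25277021-25277170, minus strand.
Scg2: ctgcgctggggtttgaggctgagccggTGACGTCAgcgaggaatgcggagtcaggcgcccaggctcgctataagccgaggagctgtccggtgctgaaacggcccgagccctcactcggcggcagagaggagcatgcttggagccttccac
Vgf: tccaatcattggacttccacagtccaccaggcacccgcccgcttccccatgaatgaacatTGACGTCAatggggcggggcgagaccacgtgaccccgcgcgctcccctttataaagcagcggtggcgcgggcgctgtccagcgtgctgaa
The element TGACGTCA, which reads the same on both strands, began 123 bases before the start in Scg2 and 90 before it in Vgf. It lay in the 250 bases upstream of 531 of 33469 genes of the table, or 1.59%. Of the 7 genes of the set with a sequence in that table (Scg2, Adcyap1, Vgf, Inhba, Ptgs2, Nptx2 and Homer1), Scg2 and Vgf had it. The shorter core TGACG, searched on both strands and contained in the full element, was also found upstream of Nptx2, also 90 bases before the start, and lay upstream of 18.2% of all genes. The AP-1 site TGANTCA, searched on both strands, was in none of the 7, against 6.34% of all genes. These matches describe letters in this window and say nothing about binding.

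Values below are levels on the scale log2(intensity + 16), and differences on it are lesion minus control, so folds of dim probe sets are understated. Levels are compared between arrays for a given probe set, never between probe sets.

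Among the peptide precursors, Penk, Scg2, Adcyap1 and Vgf all stood lower in each lesion array than in every control of the same field. Penk encodes proenkephalin, which is cut into the opioid peptides Met- and Leu-enkephalin. Its level was 10.22 in the CA1 lesion array, against 12.43, 12.53 and 12.25 in CA1 controls 1 to 3. It was 10.50 in the CA3 lesion array, against 14.09, 13.06 and 12.11 in CA3 controls 1 to 3. Both lesion arrays were therefore far outside controls, and the 2 lesion levels lay closer to each other than the CA3 controls did among themselves. Penk was 4.53-fold lower in the CA1 lesion array and 6.01-fold lower in the CA3 lesion array than the mean of its controls, with control SDs of 0.14 in CA1 and 0.99 in CA3 (n = 3 each).

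Scg2 encodes secretogranin II, a granin of dense-core vesicles and the precursor of secretoneurin. Its level was 14.24 in the CA1 lesion array, against 15.55, 15.12 and 15.05 in the CA1 controls. It was 14.27 in the CA3 lesion array, against 15.18, 15.12 and 14.98 in the CA3 controls. The Scg2 probe set was the steadiest of the peptides in CA3 controls, with an SD of 0.10, and the lesion difference there was -0.83. In CA1 the difference was -1.01 with a control SD of 0.27, and no lesion level overlapped with controls.

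Adcyap1 encodes PACAP, a peptide that raises cyclic AMP through its receptors. Its brighter probe set, 1368892_at, read 6.11 in the CA1 lesion array, against 10.35, 8.25 and 10.41 in the CA1 controls. It read 8.52 in the CA3 lesion array, against 11.41, 11.38 and 10.27 in the CA3 controls. The difference from the control mean was -3.55 in CA1 and -2.50 in CA3, although CA1 control 2 lay well under the other CA1 controls. The other Adcyap1 probe set, 1394908_at, was dim and scattered over controls, from 4.77 to 7.77 in CA1 and from 4.86 to 8.37 in CA3. Its lesion levels, 6.21 in CA1 and 6.22 in CA3, lay inside those ranges, so the 2 probe sets disagree.

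Vgf encodes a neurosecretory protein that is cut into several peptides and is induced by neurotrophins. Its level was 10.31 in the CA1 lesion array, against 11.38, 10.65 and 10.79 in the CA1 controls. It was 9.86 in the CA3 lesion array, against 10.85, 9.97 and 11.19 in the CA3 controls. The CA3 lesion array lay only 0.11 under CA3 control 2, and the mean differences of -0.63 in CA1 and -0.81 in CA3 were the smallest of the peptides by their brighter probe set, beside control SDs of 0.38 and 0.63.

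**Figure D1:**
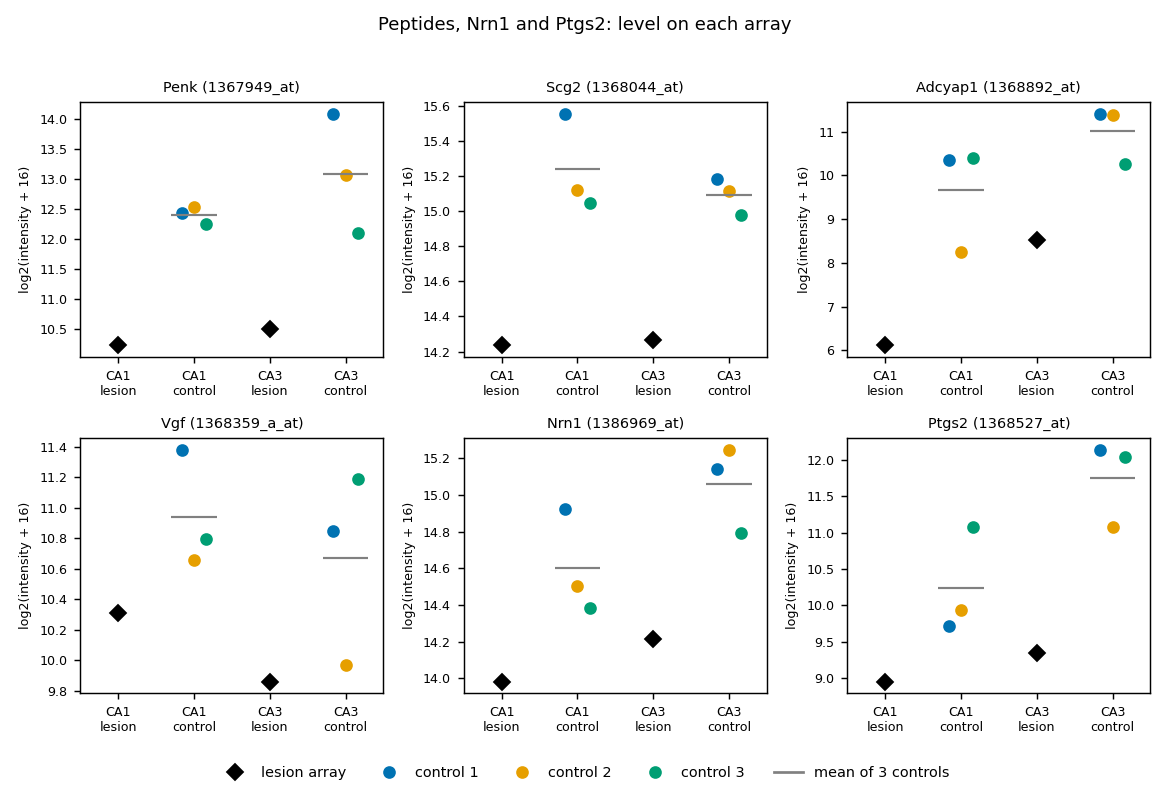
Level of Penk, Scg2, Adcyap1 (brighter probe set), Vgf, Nrn1 and Ptgs2, as log2(intensity + 16), on each of the 8 arrays; diamonds are the lone lesion arrays, circles the 3 controls of each field coloured by their number, and bars control means. In all 6 panels each lesion array lies below the 3 controls of its own field, by a wide margin for Penk and by 0.11 for Vgf in CA3.

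Nrn1 encodes neuritin, a lipid-anchored surface protein that promotes neurite growth. Its level was 13.98 in the CA1 lesion array, against 14.92, 14.50 and 14.38 in the CA1 controls. It was 14.22 in the CA3 lesion array, against 15.14, 15.24 and 14.80 in the CA3 controls. The differences of -0.62 in CA1 and -0.85 in CA3 were small in fold, 1.54 and 1.80, but neither lesion array overlapped with controls.

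Ptgs2 encodes cyclooxygenase 2, the inducible enzyme that starts prostaglandin synthesis and is found in excitatory neurons of the forebrain. Its level was 8.96 in the CA1 lesion array, against 9.72, 9.94 and 11.08 in the CA1 controls. It was 9.35 in the CA3 lesion array, against 12.13, 11.07 and 12.04 in the CA3 controls. Neither lesion array overlapped with its controls, and Ptgs2 was 2.44-fold lower in the CA1 lesion array and 5.27-fold lower in the CA3 lesion array.

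Inhba encodes the beta A subunit of activin A, a ligand of the TGF-beta family, and its 2 probe sets gave different pictures. With 1369012_at the level was 6.43 in the CA1 lesion array, against 9.12, 10.19 and 9.61 in the CA1 controls. In CA3 the same probe set read 9.28 in the lesion array, against 9.87, 8.49 and 8.75 in the CA3 controls. By this probe set the CA1 lesion array was far below controls and the CA3 lesion array lay among them. With 1383486_at the level was 9.49 in the CA1 lesion array, against 10.78, 9.30 and 13.23 in the CA1 controls. It was 8.47 in the CA3 lesion array, against 11.49, 9.75 and 12.20 in the CA3 controls. Here the CA3 lesion array was below controls and the CA1 lesion array was not, and the CA1 controls spanned 3.93 log2 units, the widest of the 14 probe sets in CA1. Lower Inhba signal in both fields thus rests on no single probe set.

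Homer1 encodes a postsynaptic scaffold that links metabotropic glutamate receptors to calcium stores, and neuronal activity induces a short form that lacks the coiled coil. Which transcript each of its 5 probe sets reads was not analysed here. Its probe sets fell into distinct patterns. Probe set 1370454_at read 10.60 in the CA1 lesion array, against 11.24, 10.92 and 12.87 in the CA1 controls. It read 11.31 in the CA3 lesion array, against 12.50, 11.95 and 13.12 in the CA3 controls. Each lesion array was below all its controls, and control 3 was the highest control in both fields.

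Probe set 1370997_at shared this order, with 8.62 in the CA1 lesion array, against 9.45, 9.71 and 10.72 in the CA1 controls. It read 5.42 in the CA3 lesion array, against 9.35, 8.48 and 10.44 in the CA3 controls. The CA3 lesion level lies under the filter on low values, so its size depends on the added 16. By contrast 1368318_at read 11.71 in the CA1 lesion array, against 11.65, 12.18 and 12.05 in the CA1 controls. It read 11.68 in the CA3 lesion array, against 12.26, 11.69 and 11.61 in the CA3 controls, so both lesion arrays lay within the control range. For 1370656_a_at the mean differences were -0.25 in CA1 and -0.36 in CA3, and the CA3 lesion array lay within its control range. The dim 1368319_a_at was lower than all controls in the CA1 lesion array (6.88, against 8.61 to 9.82) and within the control range in the CA3 lesion array (7.95, against 7.09 to 8.67).

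**Figure D2:**
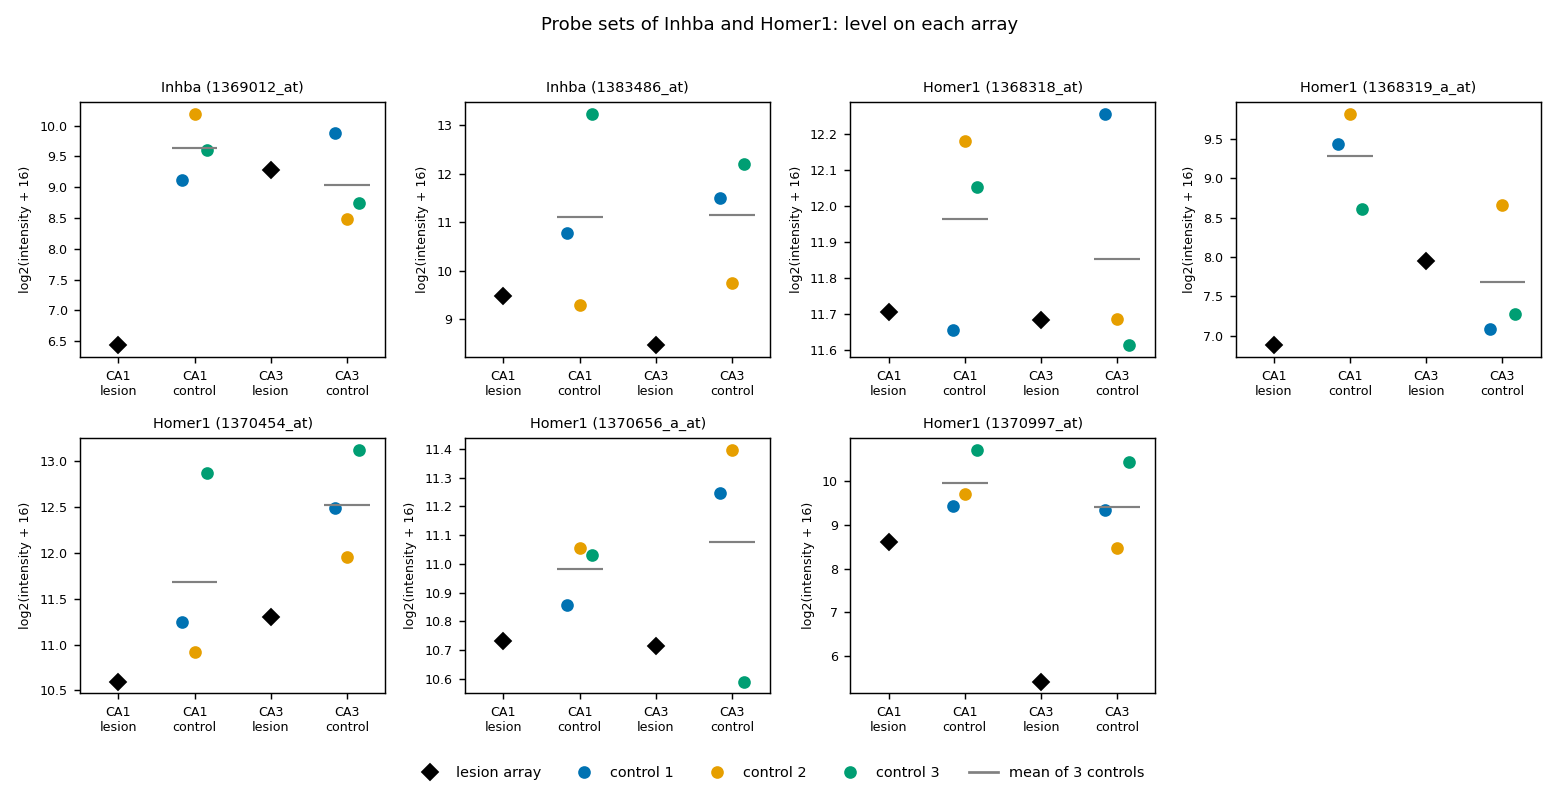
Level of the 2 Inhba and 5 Homer1 probe sets, as log2(intensity + 16), on each of the 8 arrays, with symbols as for the peptides. Homer1 probe sets 1370454_at and 1370997_at place both lesion arrays under all controls, 1368318_at places both within the control range, and each Inhba probe set places 1 lesion array under its controls.

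Over the 14 probe sets, 8 had both lesion arrays below all 3 controls of their field, 1 each for Penk, Scg2, Adcyap1, Vgf, Nrn1 and Ptgs2 and 2 for Homer1. The same was true of 8.03% of the 18625 probe sets tested. Because the set was picked on this comparison, nothing is read from that gap. The CA1 lesion array alone was below its controls for 11 of 14 probe sets (24.8% of all tested), and the CA3 lesion array for 9 of 14 (24.8% of all tested). Mean differences were lower in both fields for 12 of 14, the exceptions being Inhba 1369012_at and Homer1 1368319_a_at, whose CA3 differences were 0.24 and 0.27. The count of 8 was 9 without CA1 control 2 (9.64% of all tested) and 9 without CA3 control 3 (11.1%).

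**Figure D3:**
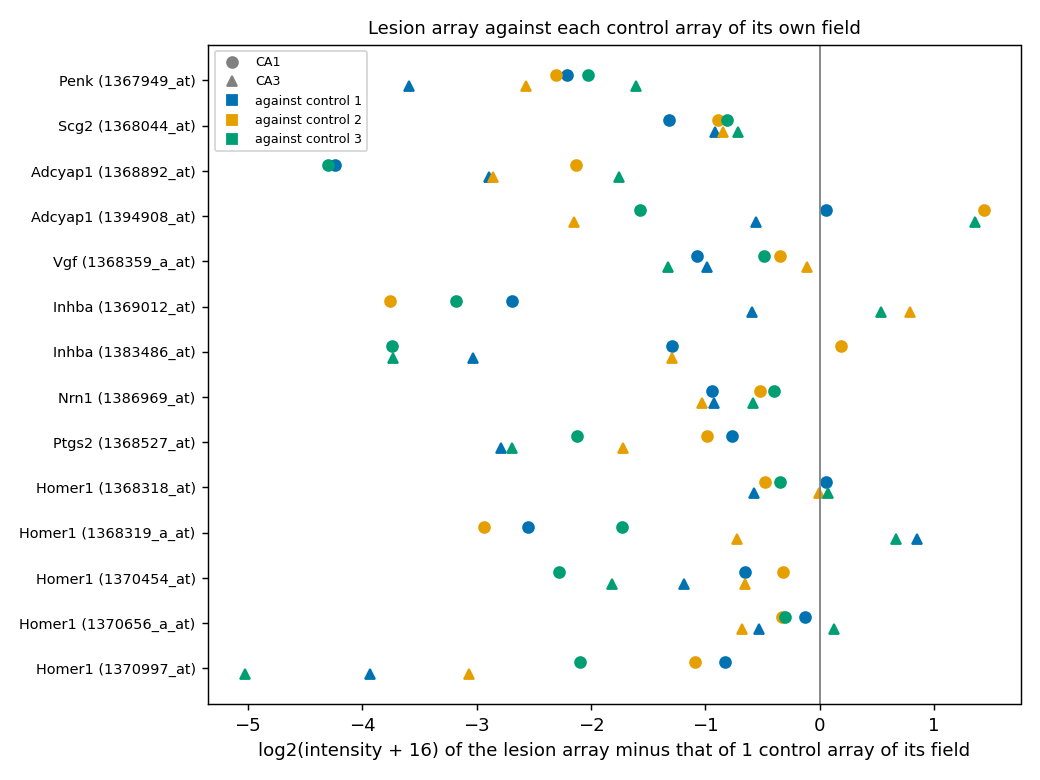
Level of the lesion array minus that of each single control of its field, on the log2(intensity + 16) scale, for all 14 probe sets; circles are CA1, triangles CA3, and colours the control number. For Penk all 6 differences lie between -3.59 and -1.61, while Adcyap1 1394908_at spreads over both sides of 0.

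Markers of other cell types moved with the lesion arrays, and controls differed in them too. Summed intensity of 10 microglia and macrophage markers was 171628 in the CA1 lesion array and ran from 8289 to 118801 in CA1 controls. It was 122469 in the CA3 lesion array, against 8116, 16798 and 99621 in CA3 controls 1 to 3. All 10 were higher than all controls in both lesion arrays. The 8 measured myelin markers summed to 620224 in the CA1 lesion array, against 62383, 297525 and 668142 in CA1 controls 1 to 3. They summed to 682564 in the CA3 lesion array, against 80802, 276406 and 503344 in CA3 controls 1 to 3. Microglia and myelin sums thus rose with the control number in each field. The mean difference of all 8 astrocyte markers was above 0, with 2 above all controls in both fields. Their sum was 1370309 in the CA1 lesion array, against 1007664 to 1433793 in CA1 controls, and 1482059 in the CA3 lesion array, against 890753 to 1068513 in CA3 controls.

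The mean difference of all 5 CA3 pyramidal markers was below 0, with 2 below all controls in both fields. Their sum was 17850 in the CA1 lesion array, against 17046 to 30115 in CA1 controls, and 36762 in the CA3 lesion array, against 41268 to 53299 in CA3 controls. Pan-neuronal marker sums lay just under the lowest control of each field. The sum of 12 was 262625 in the CA1 lesion array, against 262876 to 368530 in CA1 controls, and 376959 in the CA3 lesion array, against 384529 to 522901 in CA3 controls. The 8 interneuron markers summed to 51441 in the CA1 lesion array, against 52264 to 97231 in CA1 controls, and to 42921 in the CA3 lesion array, against 51917 to 63356 in CA3 controls. The 4 measured dentate granule cell markers summed to 47121 in the CA1 lesion array, against 28008 to 64275 in CA1 controls, and to 44343 in the CA3 lesion array, against 31502 to 39484 in CA3 controls. No marker was listed at 0, and Gad2, Dsp and Tdo2 lay under the filter on low values. In pooled tissue, fewer cells of a type and less RNA per cell cannot be told apart.

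The difference from each single control varied with the control. Against control 3, CA1 and CA3 lesion arrays had median differences of 0.08 and -0.03 for pan-neuronal markers, 0.08 and 0.12 for myelin markers, and 0.53 and 0.30 for microglia markers. They were 0.23 and -0.17 for interneuron markers, -0.18 and 0.31 for dentate markers, 0.16 and 1.01 for CA1 pyramidal markers and -0.28 and -0.24 for CA3 pyramidal markers. Against the same arrays the median over the 14 probe sets was -1.88 in CA1 and -1.02 in CA3, while the median over all tested probe sets was -0.01 and 0.03. The Penk difference from control 3 was -2.02 in CA1 and -1.61 in CA3, and that of Ptgs2 was -2.12 and -2.69. Smaller differences were found for Scg2 (-0.81 and -0.71), Nrn1 (-0.40 and -0.58) and Vgf (-0.48 and -1.33).

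Against control 3, 9 of 14 probe sets were lower in both fields (24.7% of all tested), against control 1, 11 of 14 (30.2%), and against control 2, 11 of 14 (28.6%). Against control 1, the median over the 14 was -1.0 in CA1 and -0.96 in CA3, with pan-neuronal medians of -0.43 and -0.53. The part of cell make-up in the lower signal was not tested.

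**Figure D4:**
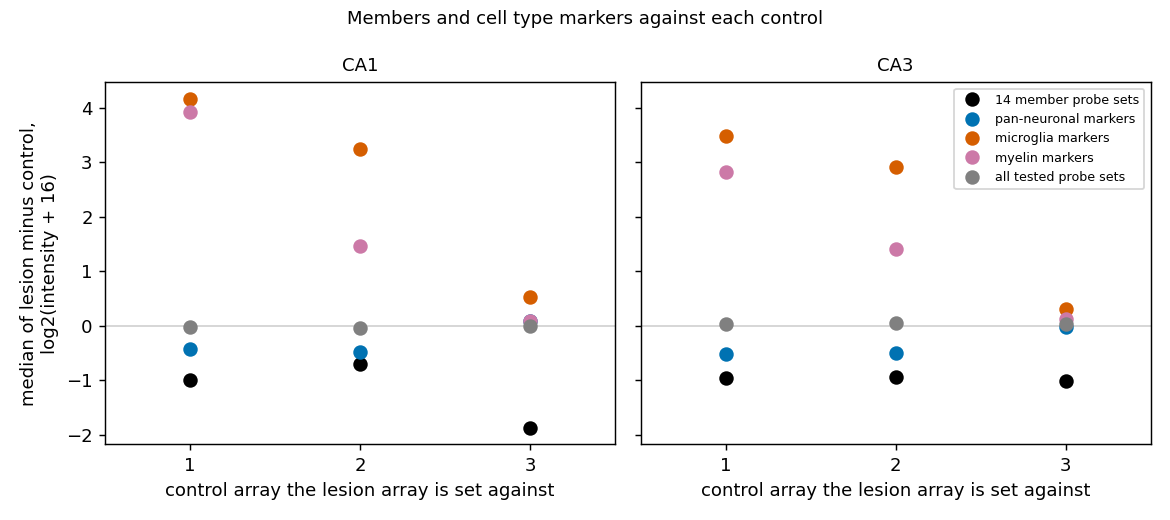
Median lesion minus control difference on the log2(intensity + 16) scale against controls 1, 2 and 3 of each field, for the 14 probe sets, the pan-neuronal, microglia and myelin markers and all tested probe sets. Against control 3 the 14 probe sets have a median of -1.88 in CA1 and -1.02 in CA3, and the microglia markers of 0.53 and 0.30.

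Across the 8 arrays, the brightest probe sets of the 8 genes varied together to different degrees. Pearson correlations of the 28 gene pairs ran from 0.10 for Nrn1 with Homer1 to 0.88 for Adcyap1 with Nrn1, with a median of 0.52. The arrays share controls, pooling and the 2 low lesion arrays, so these are descriptions only. The 2 other genes most like each by correlation over 8 arrays were Polr3d and Ep400 for Penk (0.97 and 0.95), Invs and Utp20 for Scg2 (0.96 and 0.95), and Snx27 and Ccdc149 for Adcyap1 (0.96 and 0.95). They were Nipsnap3b and Gpd2 for Vgf (0.97 and 0.95), Agpat4 and Afg2a for Inhba (0.94 and 0.92), and Prune1 and Arl10 for Nrn1 (0.98 and 0.97). For Homer1 they were Rcbtb1 and Rnf10 (0.95 and 0.94). Ptgs2 was most like Csnk2a2 (0.97) and Nr4a3 (0.95), the latter at probe set 1369067_at, which is not the brightest of Nr4a3. Nr4a3 is an immediate early nuclear receptor.

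Which of these genes differ between the fields without a lesion was asked in the control arrays. The set was picked partly for lesion signal, and earlier results of these data were known when it was chosen. In the main fit, which did not use the control numbers, no probe set of the 8 genes passed the test over all probe sets. For 7 of 12 tested probe sets the CA3 mean was the higher. With the numbers as a block, limma called Ptgs2 (adjusted p = 0.0491). That fit called 358 of all probe sets, against 98 in the main fit. Among the 12 tested probe sets, that of Ptgs2 had the largest difference. It was 1.5 higher in CA3 than in CA1 (SE 0.42, 95% interval 0.56 to 2.45, limma adjusted p = 0.276 in the main fit), a 2.83-fold difference. The lowest CA3 control, 11.07, lay just under the highest CA1 control, 11.08. Nrn1 was 0.46 higher in CA3 (SE 0.19, 95% interval 0.03 to 0.89, adjusted p = 0.574). Adcyap1 was 1.35 higher (SE 0.63, interval -0.04 to 2.75, limma adjusted p = 0.617). CA1 control 2 carried much of both the error and the size, and without that array the difference was 0.64 (SE 0.46).

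Penk differed by 0.69 (SE 0.40, interval -0.21 to 1.58, adjusted p = 0.693), and its CA3 controls spread over 1.98 log2 units against 0.28 in CA1. Scg2 had the narrowest interval, -0.53 to 0.24 around -0.15. For Vgf the interval was -1.08 to 0.53. Intervals of Inhba spanned -1.97 to 0.76 and -1.93 to 2.02 for its 2 probe sets, which are wide enough to hold differences of several fold. Those of Homer1 spanned 0 in all 4 tested probe sets. The dim Homer1 probe set 1368319_a_at was not tested and differed by -1.61, CA3 minus CA1. Of 12 tested probe sets of the 8 genes, 0 passed in the main limma fit, where 0.526% of all 18625 did. In that fit 2 had an unadjusted p under 0.05 (Ptgs2 and Nrn1), where 8.31% of all did. CA3 and CA1 controls overlapped for all 12, while among all tested probe sets 14.9% did not overlap, 6.06% with CA3 higher and 8.85% with CA3 lower.

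**Figure D5:**
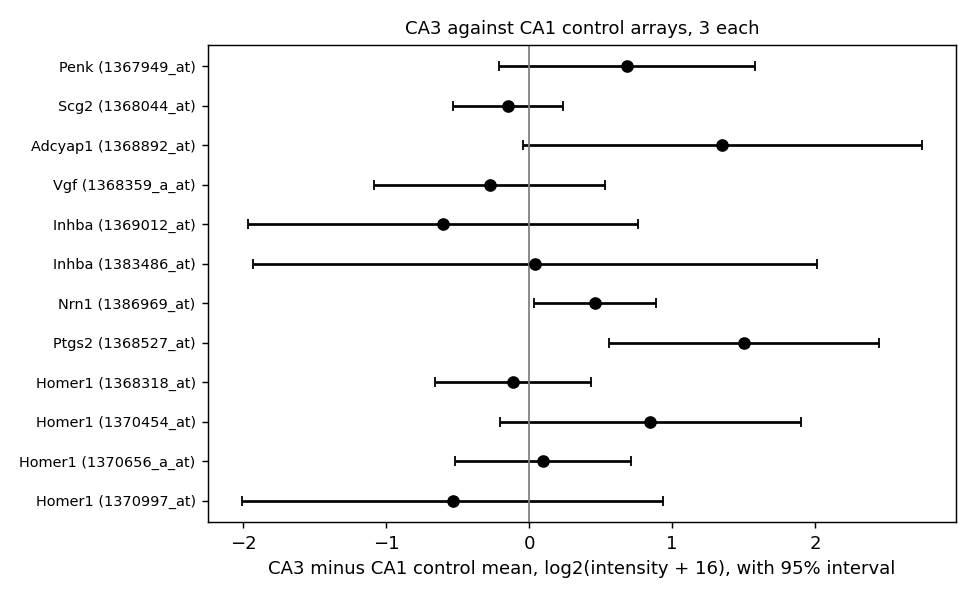
Difference of control means, CA3 minus CA1 (3 arrays each), on the log2(intensity + 16) scale with its 95% interval from the limma fit, for the 12 tested probe sets. The unadjusted intervals of Ptgs2, 0.56 to 2.45, and Nrn1, 0.03 to 0.89, lie above 0, and the others span it.

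Genes that work with the set were taken as 10 lists of receptors, processing enzymes, binding partners and regulators, with 109 genes, of which 104 had a probe set and 87 passed the filter at their brightest one. In controls, 6 of the 87 (6.9%) passed between the fields, 3 higher and 3 lower in CA3, beside 0.526% of all 18625 tested probe sets. The lists were chosen with earlier results of these data known, so nothing is read from that gap. Chgb, which encodes the granin chromogranin B, was 1.74 higher in CA3 (SE 0.16, limma adjusted p = 0.00305), and Nptx1, a secreted neuronal pentraxin that clusters AMPA receptors, was 1.87 higher (SE 0.19, adjusted p = 0.00344). Chgb read 15.82, 15.99 and 15.52 in CA3 controls, against 14.12, 14.01 and 13.97 in CA1 controls. Nptx1 read 16.24, 16.41 and 15.86 in CA3 controls, against 14.39, 14.49 and 14.03 in CA1 controls. Nr4a3 was 1.21 higher in CA3 (adjusted p = 0.0158) by the probe set used, while another of its probe sets differed by 0.89 (adjusted p = 0.521).

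Lower in CA3 were Cadps2, a priming factor for dense-core vesicle release (-2.03, adjusted p = 0.0219), the calcium-release channel Itpr1, which Homer proteins bind (-1.26, adjusted p = 0.0193), and the activity-induced kinase Plk2 (-1.03, adjusted p = 0.0448). With no intensity trend in the variances, 0 of the 6 genes and 0 of all probe sets passed. With the trend, Chgb and Nptx1 passed with any 1 of the 6 control arrays left out. Cadps2, Itpr1 and Nr4a3 passed in 2 of these 6 fits and Plk2 in 1, the fit without CA3 control 3. Without control 1 of both fields none of the 6 genes passed (adjusted p = 0.0987 for Chgb and 0.140 for Nptx1), with differences of 1.76 and 1.88.

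In the lesion comparisons 0 of the 87 genes passed in limma, in CA1, CA3 or their mean, and 0 of 18625 probe sets did, with 1193 (6.41%) at an unadjusted p under 0.05 for the mean. Both lesion arrays were below all controls for 13 of the 87 and above them for 3, beside 8.03% and 7.98% of all tested probe sets. Mean differences were below 0 for 62 of 87 (47.8% of all tested), with a median of -0.16 beside 0.02 over all. Values of the genes named next therefore describe single arrays.

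Peptide processing and granule genes had a median lesion difference, averaged over both fields, of -0.25 over 10 tested genes, with 2 below all controls in both lesion arrays; the medians of the lists below are on the same scale. Chgb read 13.46 in the CA1 lesion array, against 13.97 to 14.12 in CA1 controls, and 15.07 in the CA3 lesion array, against 15.52 to 15.99 in CA3 controls. Pam, which amidates peptides such as PACAP, read 14.50 in the CA1 lesion array, against 14.80 to 14.90 in CA1 controls, and 14.34 in the CA3 lesion array, against 14.59 to 14.63 in CA3 controls. Of the 7 opioid precursors and receptors 3 were tested (Pdyn, Pnoc and Oprl1), with a median of 0.01, and none lay beyond all controls in both fields. The kappa receptor gene Oprk1, which did not pass the filter, read 9.49 in the CA1 lesion array, against 6.64 to 8.55 in CA1 controls, and 9.16 in the CA3 lesion array, against 5.26 to 8.27 in CA3 controls. The 3 tested genes of the PACAP list, Adcyap1r1, Vipr1 and Vip, had a median of -0.31 with none beyond controls in both fields.

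The activin list had a median of -0.09 over 12 tested genes, with 2 below and 2 above all controls in both fields. The type II receptor gene Acvr2b had differences of -0.82 (CA1) and -3.51 (CA3), and the type I receptor gene Acvr1 of -0.76 and -0.69. Those of the effector gene Smad3 were 0.30 and 1.2. A second tested Acvr1 probe set, 1385069_at, was below all controls in CA1 (-1.05) but above all controls in CA3 (0.46). Neither the dim Acvr1 probe set 1398277_at nor the dim Smad3 probe set 1369528_at lay beyond all controls in both fields. The prostaglandin list had a median of 0.08 over 9 tested genes: Ptger4, a receptor for prostaglandin E2, had differences of -1.55 (CA1) and -1.78 (CA3). The constitutive cyclooxygenase gene Ptgs1 had 1.97 and 0.40, opposite in sign to Ptgs2, but 0.29 and -0.90 at its dim other probe set.

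Among the pentraxins and AMPA receptor subunits (median -0.17, 6 tested), Nptxr, the membrane-bound pentraxin, read 11.52 in the CA1 lesion array, against 11.72 to 12.75 in CA1 controls, and 12.35 in the CA3 lesion array, against 12.78 to 13.79 in CA3 controls. Its dim other probe set did not follow (-0.28 and 0.36). The Homer partners had a median of -0.11 over 7 tested genes, and none lay beyond controls in both fields. CREB family members and coactivators had a median of -0.01 over 10 tested genes. Atf4, a stress-responsive factor, had differences of -0.22 (CA1) and -0.53 (CA3), and Atf2, which did not pass the filter, of -0.57 and -1.46.

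Immediate early transcription factors and Arc had a median of -0.46 over 13 tested genes, with field medians of -0.62 in CA1 and -0.10 in CA3. Below all controls in both lesion arrays were 3: Egr1 (-0.70 in CA1 and -0.98 in CA3), Nr4a3 (-0.31 and -0.77) and Jun (-0.16 and -0.61). Unlike the list median, these 3 differed more in CA3 than in CA1. A second Nr4a3 probe set, 1369067_at, was also below all controls in both fields, at -0.77 and -1.41, while the dim 1369217_at was not in CA1 (7.18, against 6.66 in CA1 control 3). Jun probe set 1389528_s_at was likewise not below all CA1 controls, and 1374404_at was below all in both fields. Other activity-regulated genes had a median of -0.11 over 14 tested. Klf4 differed by -0.56 and -1.92, and Plk2 by -0.29 and -0.26. Npy, an interneuron peptide gene also summed among the interneuron markers, read 13.15 in the CA1 lesion array, against 13.57 to 15.36 in CA1 controls, and 13.44 in the CA3 lesion array, against 13.47 to 14.65 in CA3 controls. Sik1, which did not pass the filter, differed by 0.45 and 1.33. The 8 genes of the set, by their brightest probe sets, had a median of -1.38, a value their choice fixes in part.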

How the data were processed

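The deposited values are linear signal intensities of 1 probe set per row. The 2% trimmed means of all 8 arrays lay between 2500.9 and 2501.0, so the deposited intensities look scaled to 1 target; the sources used here name no software or summarisation. Intensities were converted to log2(value + 16). Of 31099 probe sets, 57 controls were removed, and 18625 with a mean log2 value at or above the 40th percentile were tested. Of the 14 probe sets of the set, 12 passed. Gene names came from the platform annotation, where 20832 probe sets have 1 symbol, 436 several and 9831 none; 20764 matched RefSeq (GRCr8) by gene identifier. With several probe sets a listed gene was represented by the one of highest mean.

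In limma 3.58.1 (R 4.3.3) the 8 arrays were modelled by group means (variances following intensity, 4 residual degrees of freedom, Benjamini-Hochberg adjustment over 18625). The number of arrays limits precision. Simulated field differences in 200 probe sets were called in 15.2% of cases at 2-fold, in 54.9% at 4-fold and in 73.8% at 8-fold. The members and lists were chosen with earlier results of these data known. Named are all members; listed genes past the threshold; otherwise up to 3 per list whose lesion arrays both lay beyond all their controls, by mean difference; and the 2 genes most correlated with each member. Alternatives were quantile normalisation, pseudocounts of 1 and 64, other filters, no variance trend, a replicate block, each control left out, no cross-hybridising probe sets, and controls alone.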

Additional observations from a re-analysis of the deposited data

Results flagged for a closer look

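The pentraxin gene Nptx1 stood above all controls in the CA1 lesion array and below all controls in the CA3 lesion array. The lesion minus control difference was -0.75 in CA3 and 0.19 in CA1, so the CA3 difference minus the CA1 difference was -0.95 and did not pass (limma adjusted p = 1.0 over all probe sets). With 1 lesion array per field, the spread came from controls alone. The highest CA1 control, at 14.49, lay close to the CA1 lesion array, at 14.49.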

How the results depend on the processing

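The lone lesion arrays and 4 residual degrees of freedom limit every comparison, and dim probe sets such as Adcyap1 1394908_at and Homer1 1368319_a_at scatter over controls. Of 199 recomputed field differences of single probe sets, 187 kept their direction and side of the threshold. Of 201 recomputed lesion differences, 199 stayed within 1 control SD and kept their sign. Both counts include settings that could not move the value. Filters and the removal of cross-hybridising probe sets leave every lesion difference unchanged. These settings, the variance trend, the replicate block and controls alone leave the size and direction of every field difference unchanged. The cause of the changes below was not tested. The 98 field calls over all probe sets fell to 0 with no variance trend (1548 had an unadjusted p under 0.05 in the fit with a trend), became 358 with the replicate block, 24 to 96 with each control left out, and 5 once both controls numbered 1 were dropped, which was chosen after seeing the data. The 6 listed genes called between fields became 0, 13, 2 to 6 and 0 in the same settings. For the lesion, 9 listed genes passed with the replicate block (697 of all 18625 for the mean) and 1, Npy, without control 3 of both fields (182 of all), also chosen after seeing the data. The replicate block gave 1 field call in the set, Ptgs2 (adjusted p = 0.0491). Same-numbered controls of the fields had correlated deviations of 0.16, 0.06 and 0.31 for numbers 1, 2 and 3. Not every pair reached 0.1, the limit set here, so the numbers were not taken to pair the samples. Even so, all 6 arrays correlated best with their own number. Microglia and myelin marker sums also rose with the control number in both fields. Small field differences changed sign when single controls were left out, with ranges of -0.25 to 0.0086 for Scg2, -0.54 to 0.075 for Vgf, -0.86 to 1.11 for Inhba 1383486_at, -0.31 to 0.0078 for Homer1 1368318_at and -0.063 to 0.34 for Homer1 1370656_a_at. Dropping both controls numbered 1 gave -0.29 for Inhba 1383486_at and -0.050 for Homer1 1370656_a_at, and dropping both numbered 3 gave 0.053 for Homer1 1368318_at. The mean lesion difference of Adcyap1 1394908_at ranged from -0.69 to 0.19, above 0 without CA1 control 3 or CA3 control 2. The count of 8 probe sets below all controls ran from 6, with the stricter filter (8.96% of all tested), to 11 (30.2%), in the replicate block, where each lesion array was set against control 1 alone.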
